A study of Mus musculus with 18 samples.

Results

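Hypoxia was compared with normoxia in the hearts of mice at postnatal day 30 (P30), on 9 of the 18 samples of a Clariom S mouse array study of hypoxia and cardiac maturation. The samples were chosen by their labels: 5 carry the title of hypoxia at P30 (samples 1 to 5) and 4 that of normoxia at P30 (samples 2 to 5). The other 9 samples, 4 normoxic and 5 hypoxic hearts at postnatal day 8 (P8), entered the fit to estimate the spread and to test where the response at P30 differed from that at P8. The hypoxic environment held 11% oxygen, while the oxygen level of normoxia, the strain, the sex and the length of the exposure before day 30 are not given in the sources used here. All groups were heart tissue, with no transgene or drug named, and arrays were run only on RNA above a set integrity. No label says that each sample was a separate animal, so every p-value measures the spread between these samples, which may be partly technical.

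Low oxygen stabilises the hypoxia-inducible factors, which raise transcription of genes for glucose uptake, glycolysis, mitophagy and vessel growth, and in the mouse heart birth into air is followed by a switch from glycolysis to fatty acid oxidation. Over the same weeks cardiomyocytes leave the cell cycle, replace fetal contractile isoforms such as the beta-myosin heavy chain by adult ones, and build up the ion channels and calcium handling of the mature cell. Pressure load or chronic hypoxia can bring back a set of fetal and stress genes, among them the natriuretic peptides, and the comparison at P30 addresses what of the response is present in the heart of a young adult.

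The value table used here holds log2 signals for 4704 probes, 21.2% of the array, and all values below are on that log2 scale, so a difference of 1 is a 2-fold difference in signal. A gene could be named for 2562 genes, those whose probe the authors' deposited lists name because it reached their p-value limit at P8 or at P30, so shares of named genes that differ are higher than for the array. No probe passed a limma adjusted p of 0.05 over the 22202 tests of the array at P30 (0 of 4704, 0.00%), and the smallest adjusted p was 0.112. Only the 4704 probes have p-values here, while the other probes of the array entered as a number of tests. Their ranks are not seen, so these adjusted p-values can be too high. At an unadjusted limma p under 0.05 there were 656 probes (13.9%), of which 234 were higher in hypoxia (4.97%) and 422 lower (8.97%). That split moved with the scaling: 35.7% of these probes were higher in the deposited values, 58.8% after quantile normalization and 70.4% after each array was centred on its median, which shifted the median difference of all probes from -0.10 to 0.01 and 0.06. The 4 normoxic and 5 hypoxic values did not overlap for 253 probes (5.38%), 93 higher (1.98%) and 160 lower (3.40%). A difference of more than 1 was seen for 143 probes at P30 and for 1102 at P8, where 976 probes (20.7%) passed the adjusted p. The median 95% confidence interval of a difference at P30 reached 0.595 to each side. The authors' deposited table for P30 lists 1524 probes, 821 higher and 703 lower in hypoxia, of which 1, Wsb2, has a q-value under 0.05 there (fold 2.12, q 0.0185).

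The array of normoxic sample 5 stood apart from the others at P30: its mean correlation with its own group was 0.970, against 0.975 to 0.985 for the other 8, and its limma array weight was the lowest, 0.594. Without it, 3 probes passed the adjusted p, Rcan1 at 2.42, Lgi1 at -2.44 and Pfkfb1 at -2.02. Without normoxic sample 2, 2 other probes passed, 2210407C18Rik at -2.57 and Rom1 at 1.79. With any other sample left out, 0 passed. Of the cardiomyocyte markers 3 have values, and they lay at high to moderate signal in all P30 hearts: Ttn, the giant sarcomere spring, averaged 18.84 in normoxia and 18.82 in hypoxia, Ryr2, the calcium release channel, 14.72 and 14.12, and the cardiac transcription factor Nkx2-5 6.07 and 6.02. No marker of atrium or skeletal muscle has values here, and the 2 lung and airway markers include Epcam, an epithelial adhesion molecule, near the bottom of the scale (2.37 to 2.45 in normoxia, 2.12 to 3.04 in hypoxia).

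Wsb2, Lsm3, Lgi1 and Arhgap20 stood furthest beyond the spread between samples, and these 4 passed when p-values were adjusted over the 4704 probes alone (0.0850%). Wsb2 encodes a WD-repeat protein with a SOCS box that brings substrates to a ubiquitin ligase. Its signal was 9.19, 8.92, 8.86 and 9.08 in normoxic samples 2 to 5 and 10.45, 10.21, 9.85, 10.06 and 10.04 in hypoxic samples 1 to 5. Every hypoxic heart lay above every normoxic one, with a difference of 1.11 ± 0.19 (SE) and a 95% confidence interval of 0.71 to 1.50. The limma adjusted p was 0.112 over the array and 0.0237 over the table. The same gene differed by 1.02 at P8, where it passed (limma adjusted p = 0.00339).

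Lsm3, a subunit of the ring that binds U6 small nuclear RNA in the spliceosome, was at 7.08, 6.90, 6.66 and 7.15 in normoxia and at 8.04, 7.99, 8.74, 8.48 and 8.20 in hypoxia. The groups were apart by 0.84 between the highest normoxic and the lowest hypoxic sample, and the difference was 1.34 ± 0.24 (SE), with a limma adjusted p of 0.134. At P8 the difference was 0.17. Arhgap20, a GTPase-activating protein, was lower in every hypoxic heart (6.22, 6.14, 5.79, 5.67 and 5.55) than in any normoxic one (6.80, 7.32, 7.05 and 7.00). It differed by -1.17 ± 0.21 (SE) at P30 and by -1.24 at P8, where it passed (limma adjusted p = 0.00188).

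Lgi1, a secreted protein known from synapses of the nervous system, was at 6.78, 7.96, 6.79 and 5.91 in normoxia and at 4.45, 4.52, 4.13, 5.09 and 5.51 in hypoxia. The groups did not overlap, though hypoxic sample 5 came within 0.40 of normoxic sample 5. The difference was -2.12 ± 0.35 (SE), a signal 4.35-fold lower, with a limma adjusted p of 0.112. In these bulk samples fewer cells of a type and less RNA per cell cannot be told apart.

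**Figure D1:**
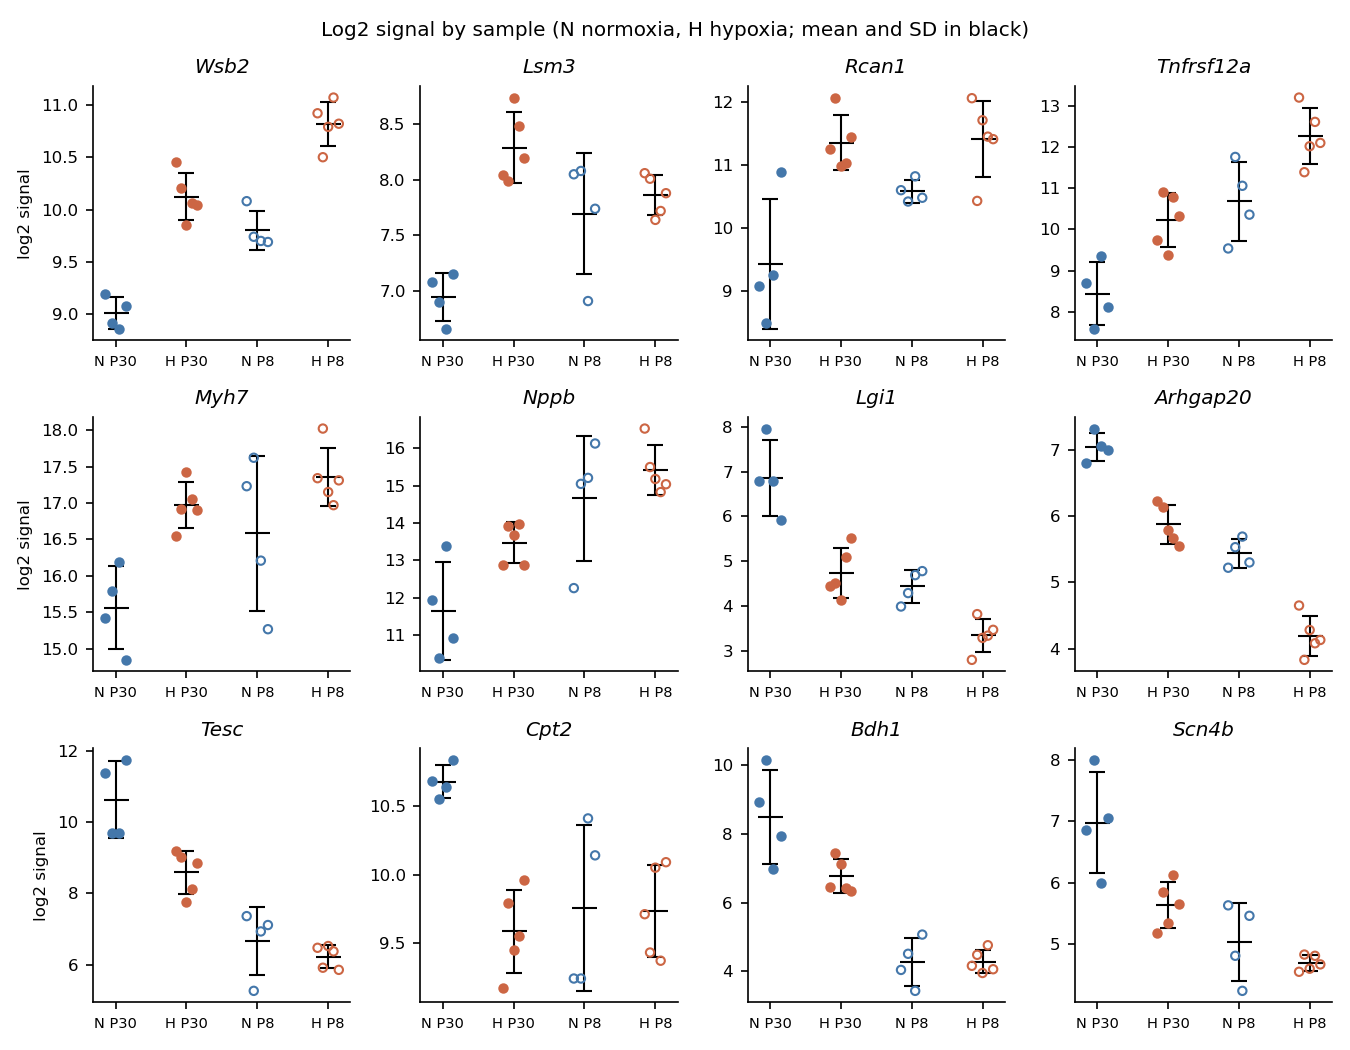
Log2 signal (y axis) of 12 genes in each sample, for normoxia and hypoxia at P30 (filled points) and P8 (open points), with the mean and SD in black and axes that do not start at 0. For Wsb2, Lsm3, Rcan1, Tnfrsf12a, Myh7, Lgi1, Arhgap20, Tesc and Cpt2 the filled hypoxic points share no range with the filled normoxic ones, while for Nppb, Bdh1 and Scn4b they overlap.

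The largest differences among genes whose groups did not overlap were read by size, since no gene passed the threshold. Above normoxia, Rcan1, Tnfrsf12a and Pde1c had the largest. Rcan1, an inhibitor of calcineurin that calcineurin signalling itself induces, was at 9.08, 8.49, 9.25 and 10.89 in normoxia and at 11.25, 12.07, 10.98, 11.03 and 11.45 in hypoxia. Normoxic sample 5 lay within 0.09 of the lowest hypoxic heart, well above the other 3 normoxic ones, and the difference was 1.93 ± 0.38 (SE; limma adjusted p = 0.295). Tnfrsf12a, the receptor for the cytokine TWEAK, was higher by 1.79 ± 0.45, with 7.59 to 9.35 in normoxia and 9.38 to 10.92 in hypoxia. Pde1c, a phosphodiesterase activated by calcium and calmodulin, was higher by 1.48 ± 0.35, from 8.74 to 9.67 against 9.84 to 11.14. Ramp1, which joins the calcitonin receptor-like receptor to form the receptor for calcitonin gene-related peptide, was higher by 1.08 ± 0.32.

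The same 12 held the ribosomal genes Rps15a and Mrpl42, described below, and Polr1e, a subunit of RNA polymerase I, at 8.80 to 9.06 in normoxia and 9.65 to 10.92 in hypoxia (1.12 ± 0.33). Tmem251, needed for the transport of enzymes to lysosomes, differed by 1.20 ± 0.25, with 8.39 to 9.43 in normoxia and 9.71 to 10.27 in hypoxia. Scgb2b7, a secretoglobin, differed by 1.25 ± 0.29 at low signal, 3.01 to 3.58 in normoxia and 3.76 to 5.27 in hypoxia.

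Below normoxia, the largest differences without overlap after Lgi1 were in Tesc, Ccn1 and Plbd1. Tesc, or tescalcin, a calcium-binding protein related to calcineurin B, was at 11.37, 9.69, 9.71 and 11.76 in normoxia and at 9.20, 9.01, 7.77, 8.13 and 8.84 in hypoxia, a difference of -2.04 ± 0.46 (SE). Normoxic samples 2 and 5 were well above samples 3 and 4, and all 4 lay above hypoxia. Csf1, the growth factor of macrophages, was at 12.03 to 13.65 in normoxia and 10.81 to 11.52 in hypoxia (-1.58 ± 0.36), and Plbd1, a lysosomal phospholipase-like protein, at 7.92 to 9.69 and 6.23 to 7.78 (-1.83 ± 0.42). Of the macrophage markers 8 have values, 0 of them reached an unadjusted limma p under 0.05, their median difference was -0.26, and their mean signal per sample ranged from 7.13 to 7.99 in normoxia and from 7.21 to 7.66 in hypoxia.

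Crhr2, the cardiac receptor for urocortins, differed by -1.24 ± 0.35 (7.68 to 9.06 against 6.40 to 7.34). Gfra2, the receptor for neurturin, differed by -1.49 ± 0.40 at P30 and by -2.15 at P8, where it passed (limma adjusted p = 0.00315). Rabep2, an effector of endosomal Rab proteins, differed by -1.43 ± 0.30, and Lrtm1, a leucine-rich transmembrane protein, by -1.34 ± 0.54 at P30 and -2.16 at P8, where it also passed (limma adjusted p = 0.0256). Gm10591 and Gm13304, near-identical copies of a chemokine gene family whose probes may share signal, differed by -1.63 and -1.46 and are uncertain as single genes.

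Gene lists of cardiac and metabolic function were then read by their members' differences, beside shares of 8.27% higher and 13.9% lower at an unadjusted limma p under 0.05 among all 2562 named genes, with a median difference of -0.10, and shares of 3.28% higher and 5.19% lower without overlap. No member of any list passed the adjusted p. Of 17 measured genes of cardiac stress and hypertrophy, 8 were higher and 1 lower at the unadjusted p, 13 had a positive difference, and the median was 0.50, or 0.26 without normoxic sample 5. The mean signal of these 17 genes was 10.56, 10.30, 10.73 and 10.55 in normoxic samples 2 to 5 and 10.85, 11.34, 11.24, 11.32 and 11.13 in hypoxic samples 1 to 5. The groups did not overlap on this mean, with hypoxic sample 1 the nearest to normoxia. Members have a name only where the authors' p-value limit was reached at P8 or P30, so this separation describes and does not test.

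Within it, Nppb, the B-type natriuretic peptide that marks wall stress, was at 11.93, 10.39, 13.38 and 10.92 in normoxia and at 12.88, 13.93, 13.68, 13.97 and 12.88 in hypoxia. Normoxic sample 4 lay inside the hypoxic range and the other 3 below it, so the difference of 1.81 ± 0.63 (SE; limma unadjusted p = 0.00928) rested on overlapping groups. Nmrk2, a nicotinamide riboside kinase of muscle, was at 3.82 to 5.03 in normoxia and at 6.04 to 7.54 in hypoxic samples 2 to 5, but at 4.26 in hypoxic sample 1 (1.83 ± 0.66). The actin-binding Xin genes Xirp1 and Xirp2 were higher by 0.86 and 0.88, and Lmcd1, a LIM-domain cofactor, differed by -0.90.

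Myh7, the beta-myosin heavy chain of the fetal mouse ventricle, was at 15.43, 15.79, 16.19 and 14.85 in normoxia and at 16.55, 16.92, 17.42, 17.06 and 16.90 in hypoxia. All hypoxic hearts lay above all normoxic ones, by 1.40 ± 0.38 on average (SE; limma adjusted p = 0.601). The list of fetal sarcomere isoforms, to which Myh7 belongs, had 7 genes measured. Its member Myom2, an M-band protein not taken here as a fetal isoform, was also higher at the unadjusted p (1.09 ± 0.38). The other 5 lay between -0.23 and 0.35. Tnni1, the slow skeletal troponin I of the fetal heart, was near the bottom of the scale at P30 (2.57 to 4.25 over all 9 samples) with a difference of -0.19 and a 95% confidence interval of -1.43 to 1.04. Of 8 adult sarcomere and cardiomyocyte genes, only Smpx, a small muscle protein, reached the unadjusted p, at 16.09 to 16.37 in normoxia and 16.41 to 17.15 in hypoxia (0.66 ± 0.21).

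Of 12 measured ion channels, aquaporins and connexins, 9 had a negative difference and 3 a positive one, 5 were lower at the unadjusted p and 0 higher, and the median was -0.50. Scn4b, the beta-4 subunit of the sodium channel, was at 6.85, 8.00, 6.00 and 7.05 in normoxia and at 5.18, 5.84, 5.35, 6.12 and 5.66 in hypoxia, a difference of -1.34 ± 0.33 (limma adjusted p = 0.515). Normoxic sample 4 lay below hypoxic sample 4, and the other normoxic samples above all hypoxic ones. Cacna2d1, a subunit that carries calcium channels to the membrane, was at 10.38 to 11.57 against 9.52 to 10.04, without overlap (-0.92 ± 0.28), and differed by -1.10 at P8, where it passed (limma adjusted p = 0.0267).

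The pore of the cardiac L-type calcium channel, Cacna1c, differed by -0.89 ± 0.32 and the repolarising potassium channel Kcnh2 by -0.87 ± 0.34, both with overlapping groups. Aqp7, which carries glycerol into the cell, differed by -0.83 ± 0.32. Gja1, the main ventricular connexin, differed by -0.32 ± 0.34, and the potassium channel gene Kcnd2 by 0.24 ± 0.48. None of 9 calcium handling genes and none of 4 genes of adrenergic and muscarinic signalling reached the unadjusted p: Ryr2 differed by -0.60 ± 0.42, Ppp1r1a, a protein phosphatase inhibitor, by -0.48 ± 0.26, and Pde5a, a cyclic GMP phosphodiesterase, by -0.53 ± 0.33.

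**Figure D2:**
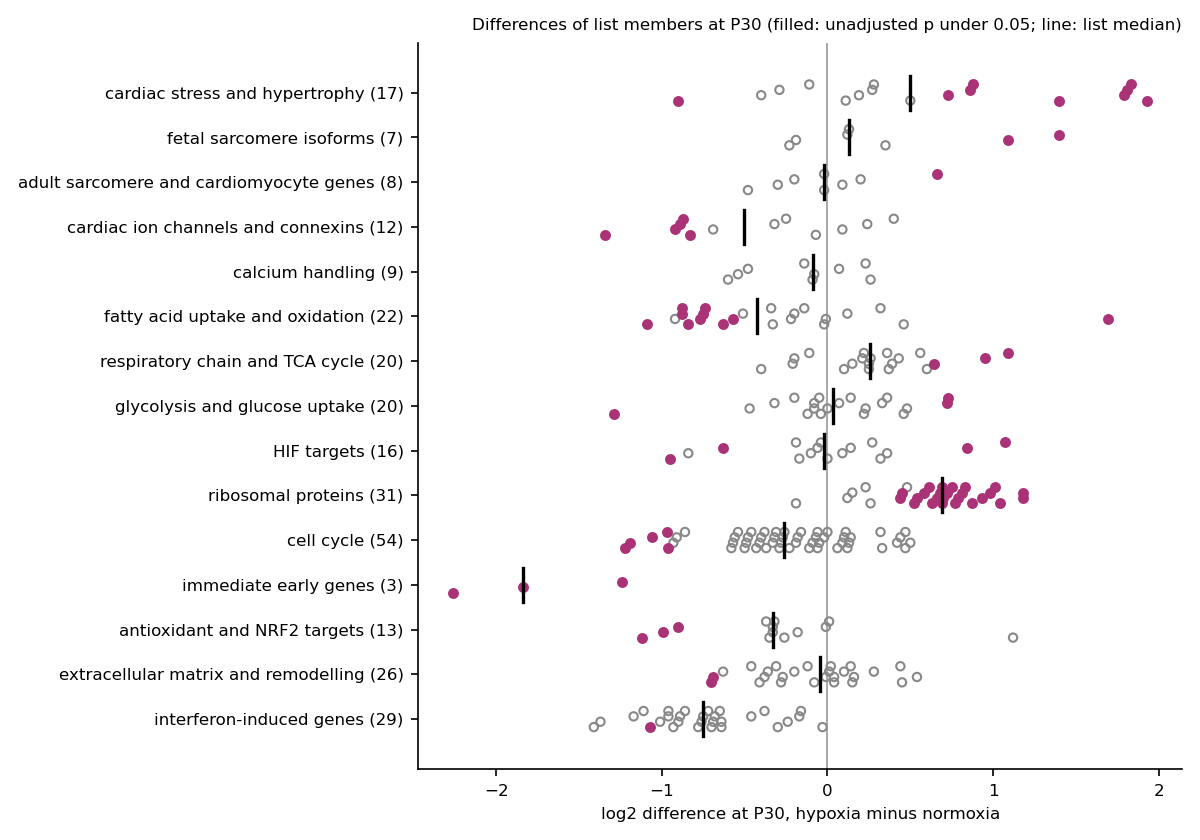
Log2 difference at P30, hypoxia minus normoxia (x axis), for the measured members of 15 gene lists (y axis, with the number of members), where filled points have an unadjusted limma p under 0.05 and the black line is the list median. Stress genes (median 0.50) and ribosomal protein genes (median 0.69, a list drawn up after the values were seen) lie to the right, ion channels (-0.50) and fatty acid genes (-0.43) to the left.

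In metabolism, of 22 measured genes of fatty acid uptake and oxidation, 9 were lower and 1 higher at the unadjusted p, 18 had a negative difference, and 6 were lower with no overlap between groups. Cpt2, the carnitine palmitoyltransferase of the inner mitochondrial membrane, was at 10.68, 10.55, 10.64 and 10.84 in normoxia and at 9.17, 9.79, 9.45, 9.55 and 9.96 in hypoxia. The groups were apart by 0.59, and the difference was -1.09 ± 0.26 (SE; limma adjusted p = 0.480), against -0.03 at P8. The others without overlap were the triglyceride lipase Pnpla2 (-0.74), lipoprotein lipase Lpl (-0.77), the acyl-CoA thioesterase Acot1 (-0.88), the electron carrier Etfdh (-0.57) and the hydratase Echs1 (-0.63). Left-out samples moved the count of lower genes from 9 down to 5, without normoxic sample 3.

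The member that was higher was Ppargc1a, the coactivator PGC-1 alpha that drives mitochondrial gene programmes, at 14.79, 16.44, 16.01 and 14.32 in normoxia and at 16.59, 18.38, 16.11, 16.94 and 17.37 in hypoxia. Only hypoxic sample 3 lay within the normoxic range (1.69 ± 0.51). The carnitine transferases of the outer membrane differed little, Cpt1b by -0.20 and Cpt1a by 0.12. In the authors' deposited table, Slc25a20, the carnitine carrier, Acaa1a, a peroxisomal thiolase, and Hadha, of the trifunctional enzyme, which have no value per sample here, are listed lower with folds of -1.26, -1.53 and -1.11.

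Bdh1, the mitochondrial enzyme that oxidises beta-hydroxybutyrate, was at 8.94, 10.17, 6.97 and 7.94 in normoxia and at 6.47, 7.44, 7.14, 6.43 and 6.34 in hypoxia, a difference of -1.74 ± 0.46 with 1 normoxic heart, sample 4, inside the hypoxic range. Of 20 respiratory chain and TCA cycle genes, 3 were higher and 0 lower at the unadjusted p, and 16 had a positive difference. The count of higher genes was 1 without normoxic sample 3 or hypoxic sample 3 and 5 without normoxic sample 2. Uqcrh, the hinge protein of complex III, was at 16.61 to 16.92 in normoxia and 17.23 to 18.56 in hypoxia (0.95 ± 0.31), and the complex I subunits Ndufa5 and Ndufs4 were higher by 1.09 and 0.64 with overlap.

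Glycolysis as a list showed little difference at P30 (20 genes, 2 higher and 1 lower, median 0.04), where 15 of the 20 had passed as higher at P8. Hk1, the hexokinase of the fetal heart, was higher by 0.72 ± 0.28 and Pfkp, a phosphofructokinase isoform, by 0.73 ± 0.27. Pfkfb1, the liver form of the enzyme that sets fructose 2,6-bisphosphate, was at 9.40, 9.85, 10.99 and 7.15 in normoxia and 7.47 to 8.28 in hypoxia, a difference of -1.29 that was -2.02 without normoxic sample 5 and -0.74 without normoxic sample 4. Slc2a1, the basal glucose transporter, was at 9.69, 9.44, 10.11 and 10.37 in normoxia and at 10.44, 10.10, 9.69, 10 and 9.96 in hypoxia. Its groups overlapped throughout, with a difference of 0.14 and a 95% confidence interval of -0.35 to 0.62, against 2.91 at P8.

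Of 16 measured targets of the hypoxia-inducible factors, 2 were higher and 2 lower at the unadjusted p, and the median was -0.02, or 0.14 after centring. Fam162a, a mitochondrial protein induced by hypoxia, and Bnip3, a mitophagy receptor and classic target, differed in opposite directions, so their promoter windows from RefSeq (GRCm38.p6, 300 bases that end just past the gene start) are shown. The capitals mark ACGTG on either strand, 1 form of the core of the hypoxia response element. Of 32851 windows, 6447 hold ACGTG (19.6%). The form GCGTG was neither marked nor counted. The window of Fam162a is chr16:36071512-36071811 and that of Bnip3 chr7:138909457-138909756, both on the minus strand.
Fam162a: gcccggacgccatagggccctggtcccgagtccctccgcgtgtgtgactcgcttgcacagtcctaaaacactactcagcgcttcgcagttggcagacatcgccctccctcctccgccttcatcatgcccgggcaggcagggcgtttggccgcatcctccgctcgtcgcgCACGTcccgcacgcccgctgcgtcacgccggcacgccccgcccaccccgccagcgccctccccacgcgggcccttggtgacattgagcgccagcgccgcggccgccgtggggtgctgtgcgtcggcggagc
Bnip3: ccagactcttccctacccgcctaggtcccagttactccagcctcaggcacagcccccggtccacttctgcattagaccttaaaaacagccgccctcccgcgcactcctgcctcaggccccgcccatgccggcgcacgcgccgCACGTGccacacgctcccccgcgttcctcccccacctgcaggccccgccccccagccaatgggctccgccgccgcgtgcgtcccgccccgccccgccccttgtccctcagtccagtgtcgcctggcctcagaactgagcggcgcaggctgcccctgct
The window of Fam162a holds 1 match and that of Bnip3 2 that overlap, 1 on each strand. Of the 10 measured target genes with a window, 9 hold a match, which is a description of letters and not of binding.

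Fam162a was at 11.35, 11.35, 10.73 and 11.20 in normoxia and at 12.46, 11.96, 12.30, 11.86 and 12.54 in hypoxia. The hypoxic hearts were all higher, by 1.07 ± 0.26 (SE; limma adjusted p = 0.515), and the difference at P8 was 0.86. Bnip3 was at 11.57, 12, 10.99 and 10.30 in normoxia and at 10.61, 10.05, 10, 10.13 and 10.52 in hypoxia, a difference of -0.95 ± 0.30 with normoxic sample 5 inside the hypoxic range. At P8 the same gene was higher by 2.24 and passed (limma adjusted p = 0.00025). Its relative Bnip3l was lower without overlap at P30 (-0.63 ± 0.24), and Ankrd37, another target, was higher by 0.84 ± 0.33. Egln3, an oxygen-sensing prolyl hydroxylase, differed by -0.84 ± 0.51, and Pdk1, P4ha1, Ndrg1 and Epas1 by -0.04, 0.09, 0.00 and -0.06.

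Ribosomal protein genes lay higher in hypoxia, a group assembled only after the values had been seen, so its counts describe and do not test. Of 31 with values, 30 had a positive difference, 25 an unadjusted p under 0.05, and the median was 0.69, or 0.77 after quantile normalization and 0.85 after centring. Of these 31, 25 are named by the authors' P30 list, which holds probes that reached a p-value limit in this same comparison. The count at the unadjusted p therefore partly repeats that limit, and members that did not differ are under-counted. Members were picked by symbol. All 20 with Rps or Rpl symbols, called cytosolic here, were positive (median 0.70), and 10 of 11 with Mrps or Mrpl symbols, called mitochondrial (median 0.52). The 20 include the relatives Rps27l, Rps4l, Rpl22l1 and Rps23rg1, so not each need be a ribosomal subunit. The mean signal over the 31 was 11.54, 11.22, 11.23 and 11.17 in normoxia and 11.93, 11.79, 12.35, 11.79 and 11.83 in hypoxia, so the groups were apart and hypoxic sample 3 was the highest. Without that sample 14 of the 31 had an unadjusted p under 0.05 and the median was 0.53.

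Rps15a, of the small subunit, was at 11.39, 10.74, 10.94 and 10.94 in normoxia and at 12.37, 11.72, 13.13, 11.86 and 11.81 in hypoxia (1.18 ± 0.28, limma adjusted p = 0.477). Rps28 was at 9.69 to 10 against 10.32 to 11.61 (0.98 ± 0.26) and Rpl22, of the large subunit, at 13.53 to 14.32 against 14.50 to 15.70 (1.04 ± 0.28). Mrpl42 was at 16.76, 16.58, 16.51 and 14.34 in normoxia and 16.81 to 17.55 in hypoxia, and its difference of 1.18 was 0.61 without normoxic sample 5. At P8 the median difference of the cytosolic genes was -0.01 and that of the mitochondrial ones -0.53. The authors' deposited table lists 38 probes with such symbols at P30, all of them higher in hypoxia and 13 of them without values per sample. Among the 38 is the pseudogene symbol Rpl31-ps12. Many ribosomal protein genes have near-identical processed copies, so single probes can share signal.

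**Figure D3:**
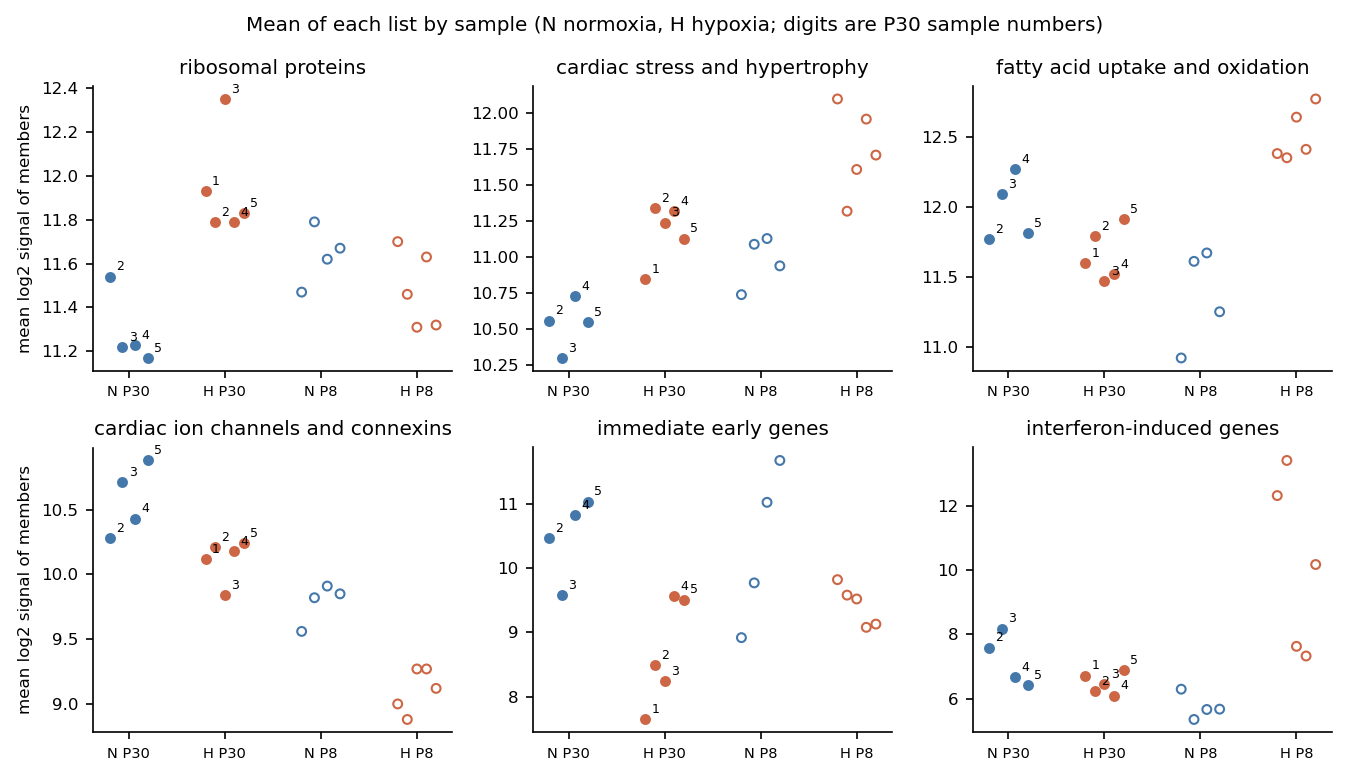
Mean log2 signal of the measured members (y axis) of 6 gene lists in each sample, for normoxia and hypoxia at P30 (filled, with sample numbers) and P8 (open). At P30 the hypoxic points lie apart from the normoxic ones for ribosomal proteins (11.79 to 12.35 against 11.17 to 11.54) and cardiac stress genes (10.85 to 11.34 against 10.30 to 10.73). They lie only narrowly apart for ion channels (9.84 to 10.24 against 10.28 to 10.88) and the 3 immediate early genes (7.65 to 9.56 against 9.58 to 11.03). For fatty acid genes and interferon-induced genes they overlap. Members were named through the authors' lists of genes that differ at P8 or P30, so separation here is a description and not a test.

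Among regulators of growth and timing, all 3 immediate early genes with values were lower. Ccn1, a matricellular protein listed by the authors under its older symbol Cyr61, was at 13.58, 13.10, 13.96 and 14.42 in normoxia and at 12, 11.94, 11.18, 12.09 and 12.43 in hypoxia, without overlap (-1.84 ± 0.51, limma adjusted p = 0.636). Myc was at 5.43, 5.89, 7.67 and 5.80 against 3.77, 5.41, 5.33, 5.25 and 5.03 (-1.24 ± 0.39), with its groups apart by only 0.02 and a difference of -0.75 without normoxic sample 4. Egr1 was the most scattered, at 12.36, 9.74, 10.82 and 12.88 in normoxia and at 7.17, 8.12, 8.24, 11.35 and 11.08 in hypoxia, where samples 4 and 5 stood well above the other 3 (-2.26 ± 0.88). Other immediate early genes in the authors' deposited table were split, with Nr4a3 (fold 14.14), Maff (1.68) and Egr3 (1.25) higher and Btg2 (-3.12) and Zfp36 (-2.38) lower.

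Of 6 clock genes, 4 had a positive difference, up to 0.30, and 2 a negative one, with a list median of 0.09. The 2 were Nr1d1, the repressor REV-ERB alpha, and Dbp. Nr1d1 was at 9.33, 8.34, 9.48 and 10.95 against 8.09, 7.83, 7.28, 9.06 and 7.62, with overlap (-1.55 ± 0.47). Dbp differed by -0.80 ± 0.58. Cry1, without values per sample here, is listed higher in the authors' deposited table (fold 1.45). Cell cycle genes had low signal at P30. Of 54 measured, 5 were lower and 0 higher at the unadjusted p, 40 had a negative difference, and the median was -0.26. The share lower was below the 13.9% of all named genes. The list median was -0.10 after centring and -0.16 after quantile normalization. Tpx2, a spindle assembly factor, was at 5.47 to 6.26 in normoxia and 4.34 to 5.18 in hypoxia (-1.06 ± 0.35), and Ccna2, Bub1b, Nuf2 and Ube2c, of S phase and mitosis, differed by -1.19, -1.22, -0.97 and -0.96. With only the P30 groups in the fit, 9 of the 54 were lower at the unadjusted p. Mest, an imprinted growth gene, was at 12.90, 12.32, 10.46 and 13.30 against 9.68, 9.47, 9.90, 10.63 and 9.44, where normoxic sample 4 was inside the hypoxic range (-2.42 ± 0.70), and the other 8 imprinted genes measured did not reach the unadjusted p, among them Igf2 at -0.24.

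Stress and defence genes at P30 gave few differences. Slc38a2, an amino acid transporter induced by amino acid shortage, was at 14.81, 14.65, 14.72 and 15.04 in normoxia and at 15.39, 15.80, 15.90, 15.56 and 15.82 in hypoxia, with no overlap (0.89 ± 0.21, limma adjusted p = 0.477). It was the 1 gene of 21 in the endoplasmic reticulum stress and amino acid response that reached the unadjusted p. Of 13 antioxidant genes, 11 had a negative difference and 2 a positive one, the highest at 1.12. At the unadjusted p 0 were higher and 3 lower. The 3 were Aox1, an aldehyde oxidase (7.83 to 9.34 against 7.13 to 7.73, -1.12 ± 0.30), the quinone reductase Nqo1 (-0.90 ± 0.33) and the extracellular superoxide dismutase Sod3 (-0.99 ± 0.44). Of members without values per sample, the authors' deposited table lists 2 higher and 1 lower. Hspa1a, an inducible heat shock protein, was higher by 0.55 ± 0.21, and Cpox, an enzyme of haem synthesis, differed by -0.60 ± 0.27. Of 6 proteasome and ubiquitin ligase genes, 2 were higher and 1 lower at the unadjusted p. Their differences ran from -0.95 to 1.11, with a median of -0.15. The proteasome subunit Psmb2 was higher by 0.65 ± 0.28. No gene of the insulin and growth factor list reached the unadjusted p, Akt1 differing by 0.38 ± 0.24. Of the glucocorticoid and thyroid hormone lists only Lpl and Myh7, described above, did.

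All 29 interferon-induced genes measured were lower in hypoxia at P30, 1 of them at the unadjusted p, with a median of -0.75. Their mean signal was 7.59, 8.18, 6.68 and 6.43 in normoxic samples 2 to 5 and 6.72, 6.24, 6.46, 6.10 and 6.89 in hypoxic samples 1 to 5. The groups overlapped, with normoxic samples 2 and 3 the highest of the 9. Without normoxic sample 3, 24 of the 29 were lower and the median was -0.45. Hypoxic samples at P8, which share the fit, ranged from 7.33 to 13.40 on the same mean, and with only the P30 groups in the fit 11 of the 29 had an unadjusted p under 0.05. Lgals3bp, a secreted galectin-binding protein, was lower without overlap (5.49 to 6.43 against 4.66 to 5.12, -1.07 ± 0.46).

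Of 26 matrix genes, Sparc, a collagen-binding glycoprotein, was at 18.39 to 18.67 in normoxia and 17.24 to 18.15 in hypoxia (-0.69 ± 0.20), Thbs2, a thrombospondin, differed by -0.70 ± 0.28 with overlap, and the other 24 did not reach the unadjusted p. Of 8 fibroblast markers, 4 had a positive difference, up to 0.44, and 4 a negative one, with a median of -0.02. Among them Pi16 and Ddr2 differed by -0.94 and -0.56, and Col1a1 and Col3a1 by 0.04 and -0.20. The mean of the 8 markers ranged from 12.31 to 13.11 in normoxia and from 11.95 to 13.13 in hypoxia. Among 6 endothelial markers, Cldn5, the tight junction protein of vessels, was at 9.20, 8.20, 6.98 and 9.44 against 7.64, 6.57, 6.97, 6.93 and 6.59 (-1.52 ± 0.46), while Flt1 and Eng differed by -0.21 and 0.09. None of the 4 vessel growth genes reached the unadjusted p, nor did any of the 3 pericyte and smooth muscle markers (Pdgfrb -0.44 ± 0.27). None of 8 erythroid, 4 neutrophil and 3 lymphocyte markers did either, with median differences of -0.05, 0.10 and 0.05. The 4 adipose markers with values differed by -0.79 (Slc36a2) to 0.48, of which 2, Slc36a2 and Lpl, were lower at the unadjusted p, or 0 to 2 with a sample left out. Cell composition itself was not measured, and its part in these differences was not tested.

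The response at P30 was then set against that at P8, in the same fit and on samples that the ages do not share. The difference between the effects passed an adjusted p of 0.05 for 243 probes (5.17%), with the effect at P30 below that at P8 in 204 and above it in 39. Of the 243, 222 had passed at P8, and 75 had an unadjusted p under 0.05 at P30. The 714 probes called higher at P8 had a median difference of 1.48 there and of -0.12 at P30, where 17 were higher (2.38%) and 44 lower (6.16%) at the unadjusted p. The 262 called lower at P8 went from a median of -1.10 to -0.04, with 9 higher (3.44%) and 18 lower (6.87%). Among all probes 4.97% were higher and 8.97% lower at P30, above each of these shares. Read from P30, 17 of the 234 higher probes (7.26%) and 18 of the 422 lower ones (4.27%) had been called the same way at P8. Of the 422, 44 (10.4%) had been called the opposite way. These shares, too, lay below those of all 4704 probes, of which 714 were called higher and 262 lower at P8.

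Csrp1, a LIM protein of the actin cytoskeleton, had differences of opposite sign at the 2 ages. At P30 it was at 9.65, 8.55, 10.56 and 9.95 in normoxia and at 8.15, 8.04, 9.47, 8.37 and 8.46 in hypoxia, with overlap (-1.18 ± 0.39), while at P8 it was 3.73 higher in hypoxia (limma adjusted p of the difference of effects 0.00022). Rasl11b, a Ras-like GTPase, and Slc2a1 differed by -0.39 and 0.14 at P30 against 2.82 and 2.91 at P8. Acot1 and Impa2, an inositol monophosphatase, were lower at P30 (-0.88 and -0.61) and higher at P8 (2.46 and 1.91). Lgals3bp stood at -1.07 against 4.29.

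Genes with the opposite pattern were fewer. Ramp1 was at 6.92, 6.05, 6.97 and 5.95 in normoxia and at 7.33, 7.63, 7.72, 7.83 and 7.24 in hypoxia at P30, and at P8 it differed by -1.04, so that the effects differed by 2.12 (limma adjusted p = 0.0237). Tmem251 went from -0.66 at P8 to 1.20 at P30 (limma adjusted p = 0.0116), and Smpx from -0.57 to 0.66 (0.0486). The call for Smpx was lost in 17 of 24 alternatives and that for Ramp1 in 3, with adjusted p up to 0.0965 and 0.0596. For Wsb2 and Arhgap20 the effects at the 2 ages differed by 0.09 and 0.07, with limma adjusted p-values of 1.

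**Figure D4:**
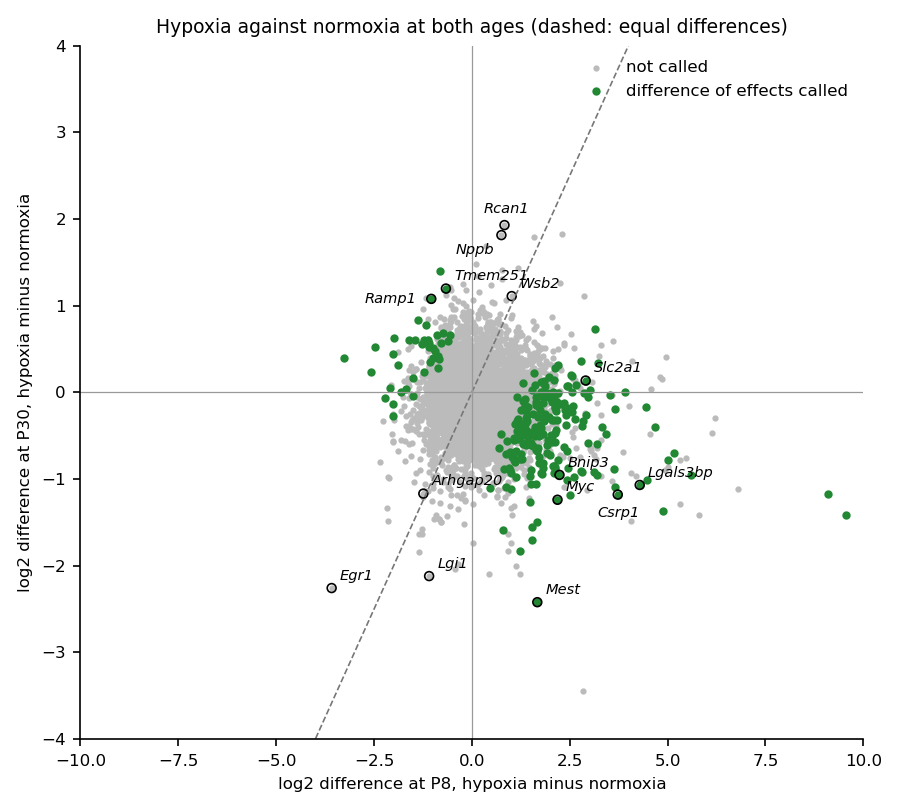
Log2 difference of hypoxia minus normoxia at P8 (x axis) and at P30 (y axis) for 4704 probes, with the 243 probes whose effects differ at a limma adjusted p under 0.05 in green, named genes circled and equal differences along the dashed line. Most green points lie right of 0 at P8 and at or below 0 at P30, while Wsb2 and Arhgap20 lie near the dashed line.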

How the data were processed

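Heart RNA was measured on Clariom S mouse arrays, and the groups and sample numbers come from the labels. Per the labels' protocols, total RNA was extracted with a column kit for fibrous tissue and biotin-labelled with a whole-transcript kit. Values are log2 signals for each probe, as deposited, normalized by the authors with a method not given in the sources used here. Affymetrix Expression Console, with no version, stands in the submitters' processing notes. Each array's median was 7.38 to 8.07, and the number of arrays limits the precision. The authors' deposited gene lists give, per the file headers, a signed fold change (a score, negative where hypoxia is lower), the log2 group averages and their SD, and p-values and q-values. Their test is not given here. Their averages differ from the means of the samples, so their folds are printed as theirs. Enrichment tables were not used, because no header states which comparison they hold.

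The members and gene lists were chosen with earlier results of these data known. Probes were named through the authors' lists: 2568 have 1 symbol, 105 have several and stayed unnamed, and 2031 have none or a date. Of the symbols, 89 were updated through RefSeq (GRCm38.p6), and 3 p-values stored as clock times were restored. A gene with several probes was taken at its highest mean. Signals were fitted with limma 3.58.1 in R 4.3.3 (lmFit, contrasts.fit, eBayes) over the 4 groups with no filter and no block. There were 14 residual degrees of freedom and 5.98 from the prior. Because the table is a selection whose group means span at least 0.463, Benjamini-Hochberg adjustment used 22202 tests, a number worked out from the authors' q-values, p-values and ranks. The script was tested on simulated data. Unadjusted p-values are limma's, and SE is that of the difference.

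Genes to be named were to be the 12 largest differences each way past the threshold with groups apart, the strongest member of each list, the 6 strongest differences of effects and 8 check genes. Since none passed at P30, the 12 largest each way with groups apart were named without the threshold, and further members after their values were seen. Alternatives were the P30 groups alone, quantile normalization, median centring, adjustment over the table alone, a trended robust variance prior, array weights, the replicate block, leaving out dim probes, the authors' q-values, and leaving out each sample.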

Additional observations from a re-analysis of the deposited data

Results flagged for a closer look

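Of 146 groups of P30 samples examined, each the normoxic or hypoxic values of a named gene, 5 held a sample far from the others by Dixon's test, where chance gives about 1 in 20. Mrpl42 was at 14.34 in normoxic sample 5, against 16.51 for the next sample of its group. Myc was at 3.77 and Sparc at 17.24 in hypoxic sample 1, against 5.03 and 17.90 for the next samples. Pfkfb1 was at 7.47 in hypoxic sample 4, below 8.09 for the next, and Ppp1r1a at 5.67 in hypoxic sample 2, above 5.04.

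The effect of hypoxia at P30 minus that at P8 passed limma's adjusted p of 0.05 for 20 of the 73 named genes. Among all 4704 probes this difference passed for 243 (5.17%). Acot1, Csrp1, Impa2, Lgals3bp, Rasl11b and Slc2a1 were named, at least in part, for being strongest in this same difference. The count of 20 therefore partly repeats that choice, and it describes and does not test. The effect was lower at P30 for the metabolic and oxygen-responsive genes Acot1 (-3.34), Lpl (-2.06), Bnip3 (-3.19), Slc2a1 (-2.77), Aox1 (-2.11) and Impa2 (-2.52). It was also lower for the growth and cell cycle genes Myc (-3.43), Mest (-4.09), Tpx2 (-2.69), Pdgfb (-2.34), Csf1 (-2.39) and Rasl11b (-3.20). The same held for Csrp1 (-4.90), Tnni1 (-3.86), Nr1d1 (-3.08), Plbd1 (-3.07) and Lgals3bp (-5.36). It was higher at P30 for Ramp1 (2.12), Tmem251 (1.86) and Smpx (1.23). For 9 of the 20 the call was lost under at least 1 alternative, most often for Smpx and Mest, and for none did the direction turn.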

How the results depend on the processing

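The count of probes passing at P30, 0 in the reported fit, was 4 adjusted over the table alone, 5 with array weights and 1 by the authors' q-values, 0 under the other 6 settings that keep all samples, and 0 to 3 with a sample left out. The probes higher at the unadjusted p, 234, numbered 361 after quantile normalization and 483 after median centring, and 188 to 236 with a sample left out. Those lower, 422, numbered 253 and 203, and 327 to 417. The difference of effects, 243, was 570 after centring, 1191 over the table alone, 608 with array weights, and 139 to 376 with a sample left out: 139 without normoxic sample 3 at P30, 375 without normoxic sample 13 and 376 without hypoxic sample 5 at P8, alternatives chosen after seeing the data for the P8 samples. Of 73 named genes, 70 kept their direction at P30 in every alternative. The other 3 had differences near 0: Rag2 was at -0.00678 after quantile normalization, -0.005 with the replicate block and -0.005 to 0.188 with a sample left out, Slc2a1 at -0.0187 to 0.291 (negative without normoxic sample 3), and Tnni1 at -0.425 to 0.0227 (positive without normoxic sample 4). Leaving out a sample also moved the P30 difference by over 1.5 times for Akt1 (0.27 to 0.59), Cpox (-0.81 to -0.30), Pde5a (-0.73 to -0.28), Pdgfrb (-0.60 to -0.24), Pi16 (-1.17 to -0.61), Rasl11b (-0.53 to -0.25) and Ryr2 (-0.92 to -0.33), and the count at the unadjusted p from 2 higher to 1 to 3 for glycolysis and from 1 lower to 0 for interferon-induced genes. Numbers 2 to 5 occur in both P30 groups, but same-numbered deviations correlated at -0.0772, -0.0109, 0.0743 and -0.168, so they were not taken as pairs, and the replicate block gave 0 calls, with 202 higher and 374 lower at the unadjusted p. The cause of these shifts was not tested, and a median interval of 0.595 to each side limits what 9 arrays can show.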

Other observations

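Of a family of near-identical zinc-finger genes, 6 are listed lower in hypoxia in the authors' deposited P30 table, with these folds: Gm14305 (-41.92), Gm2004 and Gm14419 (both -35.76), Gm14295 (-25.42), Gm2026 (-12.51) and Gm14418 (-7.48), with q-values of 0.6867 to 0.7275. Of this family Zfp970, listed by the authors as Gm14420, has a value per sample. It was at 16.70, 18.38, 15.96 and 14.11 in normoxic samples 2 to 5 and at 15.76, 13.27, 15.73, 12.79 and 13.38 in hypoxic samples 1 to 5. The groups overlapped, with a difference of -2.10 ± 0.76 (SE) and a spread within normoxia of 1.77 (SD), and at P8 the difference was 1.23. Probes of near-identical copies can share signal, so these are not separate measurements of single genes.

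Genes of other functions that the authors' deposited P30 table lists, without values per sample here, include the transferrin receptor Tfrc (fold 2.79), the natriuretic peptide clearance receptor Npr3 (2.71), the monocarboxylate transporter Slc16a1 (1.61), catalase, Cat (-2.68), smooth muscle myosin light chain kinase, Mylk (-2.23), the beta-1 adrenergic receptor Adrb1 (-1.37) and its kinase family member Grk5 (-1.67). None of them has a q-value under 0.05 in that table.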
